A study of Homo sapiens with 2 samples.

Results

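The EGFR family was taken as 10 genes: the receptors EGFR, ERBB2 and ERBB3, the ligands AREG, EREG, HBEGF, TGFA, BTC and EPGN, and the receptor inhibitor ERRFI1. Members were all probe sets that the platform annotation pairs with exactly 1 of these genes. This gave 29 probe sets of 8 genes, out of 41091 probe sets of 19775 genes. AREG and EPGN had no such probe set and were not analysed here. The data were 2 expression arrays, 1 from KYSE170-luc cells transfected with empty vector and 1 from KYSE170-luc cells transfected with SOX17, a SOX family transcription factor. The line comes from a human squamous carcinoma of the esophagus and carries luciferase, and both cultures were grown in the same serum-containing medium and taken 12 h after transfection. The comparison asks which transcripts differ once SOX17 has been introduced. Each group had 1 array, so there was no replicate and no test was made. Every difference below is between these 2 arrays.

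EGFR family receptors are tyrosine kinases of the cell surface. Their ligands are made as membrane-anchored precursors and are cut free by ADAM proteases, after which they bind a receptor and cause it to pair with another receptor of the family. The paired receptors recruit adaptor proteins and switch on the RAS to ERK and the PI3K to AKT cascades, and ERK in turn induces early genes, among them genes for ligands and for inhibitors of the pathway. In squamous epithelium this signalling drives proliferation and migration of basal cells, and EGFR is often abundant in squamous carcinomas.

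A probe set was called measured when its intensity lay at or above a floor of 95 on both arrays, the 60th percentile of all values. By this rule 12 of the 29 probe sets and 6 of the 10 genes were measured, set among 10034 measured genes. Of the other probe sets 15 lay below the floor on both arrays and 2 on 1 array. Where 1 value stands for a gene, it is that of its brightest probe set. Log2 ratios have the SOX17 array on top, so that a positive value is a higher intensity with SOX17. The error given is the SD of 1 log2 ratio within the arrays, found from how far 2 probe sets of 1 gene lie apart. That SD was 0.35 in the lowest tertile of levels, 0.26 in the middle and 0.17 in the highest, and it leaves out the spread between cultures. Whether the 2 cultures differ beyond the spread between cultures cannot be told from 1 array each.

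The line's labelled origin was checked against squamous epithelial markers. All 9 of the 12 listed markers that had a named probe set were measured, where 10034 of all 19775 genes were. Among them the basal keratin KRT14 read 1509.7 with empty vector and 1814.3 on the SOX17 array. The keratins KRT5, at 247.5 and 273, and KRT16, at 205.5 and 303.8, were dimmer. Of the markers of other cell types those with a named probe set gave 1 measured fibroblast gene of 8 (COL1A1), 1 leukocyte gene of 8 (CD79A) and 0 endothelial genes of 6. COL1A1 read 780.2 with empty vector and 845.1 on the SOX17 array, brighter than KRT5 and KRT16. Both probe sets of SOX17 lay below the floor on both arrays, at 4.5 and 83.8 for one and 19.1 and 6.5 for the other, empty vector first, so these values leave the labels unchecked. Poly-A controls spiked into the RNA were brighter with SOX17 on 24 of 24 probe sets (median 0.57 on the log2 scale). Several of these probe sets read the same spiked transcript, so they are no replicates. Their part in the results was not tested.

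Among the measured EGFR family genes, the ligand HBEGF and the inhibitor ERRFI1 were lower on the SOX17 array, by 1.29-fold and 1.28-fold, and the 3 receptors were level with or slightly above the empty vector array. No member was as much as 1.5-fold higher or lower. Over all measured genes 3.78% were at least 1.5-fold higher and 3.19% at least 1.5-fold lower, so a count of 0 among 6 genes is near the background. By a smaller size, a log2 ratio of 0.32 either way, HBEGF and ERRFI1 were lower and no member was higher by its brightest probe set. Over all measured genes 13% were lower and 15% higher by that size. A dimmer measured probe set of ERBB3 (0.35) and one of TGFA (0.57) were higher by more than that size. The 6 genes lay 3 above 0 and 3 below, where 54.6% of all measured genes lay above and 45.4% below. Their median log2 ratio was -0.02, and that of all measured genes was 0.03. In RNA from a whole culture, fewer cells holding a transcript and less of it per cell cannot be told apart.

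**Figure D1:**
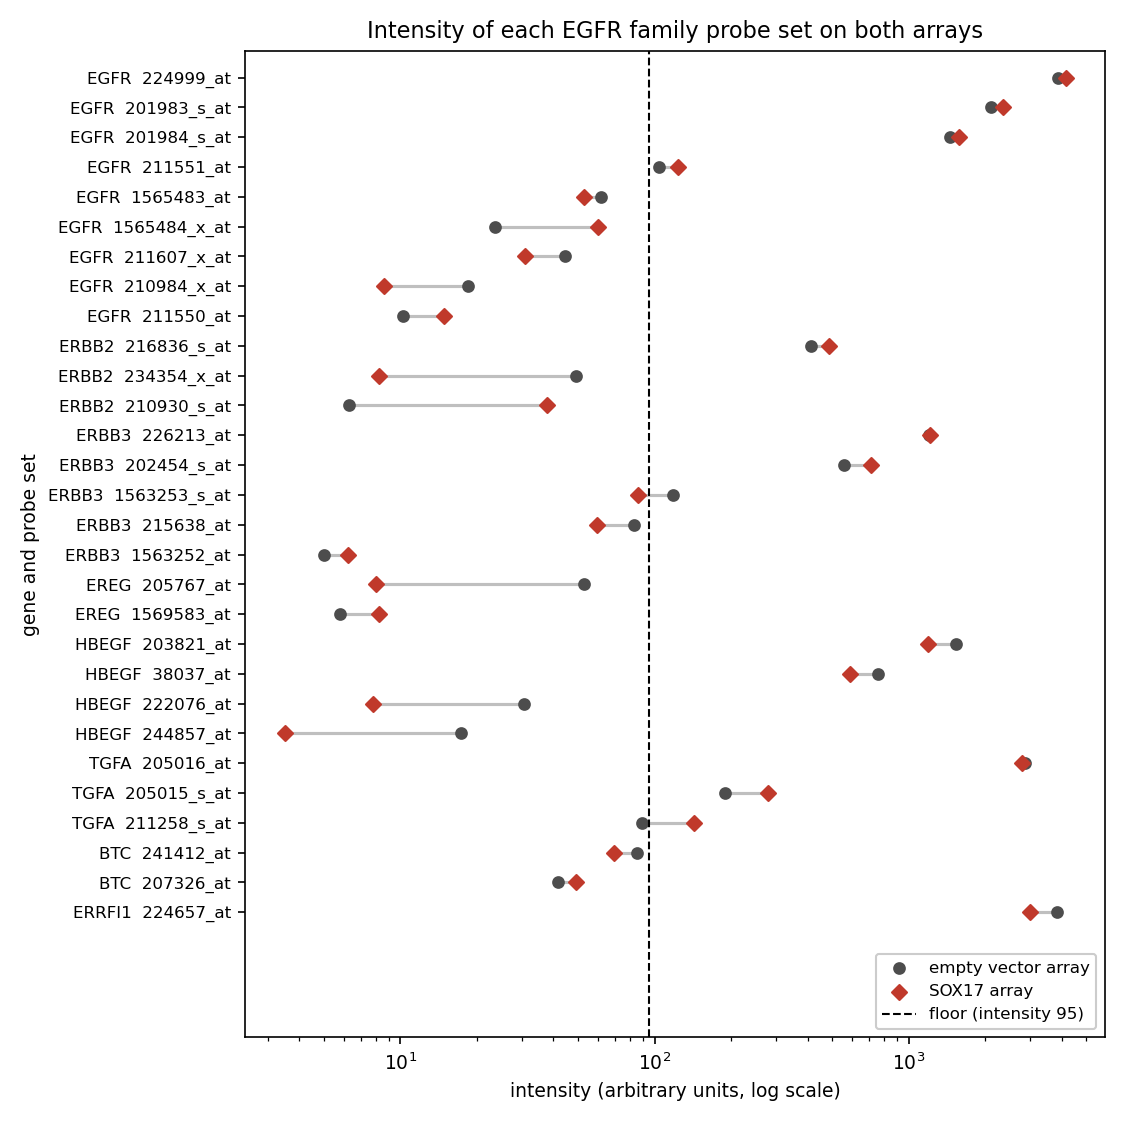
Intensity on a log scale of each of the 29 EGFR family probe sets, with circles for the empty vector array, diamonds for the SOX17 array and a dashed line at the floor of 95. The 12 measured probe sets lie right of the line on both arrays, and there the 2 points of a probe set lie close together, whereas several pairs left of it lie far apart.

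EGFR, the receptor that binds EGF, HB-EGF, amphiregulin and TGF-alpha, had 9 probe sets, of which 4 were measured. The brightest read 3862.8 with empty vector and 4145.6 on the SOX17 array, a log2 ratio of 0.10 ± 0.17 (SD within the arrays). The next read 2098.8 and 2340.8, in the same order, with a log2 ratio of 0.16 ± 0.17. A further one read 1448.1 and 1577.6, with a log2 ratio of 0.12 ± 0.26. On all of these EGFR was higher on the SOX17 array, each time by less than 1 SD. The dimmest measured one was near the floor at 103.9 and 123.3, with a log2 ratio of 0.25 ± 0.35. All 4 ratios lay above 0, which 9.76% of the 635 genes with 4 or more measured probe sets also showed, and probe sets of 1 gene report on the same transcripts and are no replicates. The other 5 EGFR probe sets lay below the floor on both arrays, between 8.6 and 61.8, some higher on one array and some on the other.

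ERBB2 codes for the receptor with no ligand of its own, which serves as the preferred partner of the others. It had 1 measured probe set of 3, at 412.6 with empty vector and 484.3 on the SOX17 array, a log2 ratio of 0.23 ± 0.35. This was the highest ratio among the 6 genes and was still within 1 SD. The other probe sets of ERBB2 went opposite ways below the floor, one from 49 to 8.2 and the other from 6.3 to 37.6, and no fold is given for them.

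ERBB3 codes for the neuregulin receptor whose own kinase is weak and which passes the signal on through PI3K. It had 2 measured probe sets of 5. The brighter read 1196.9 with empty vector and 1208 on the SOX17 array, a log2 ratio of 0.01 ± 0.26. The dimmer read 556.7 and 711.7, a log2 ratio of 0.35 ± 0.26. The brighter probe set thus hardly differed between the arrays and the dimmer was higher on the SOX17 array by more than 1 SD. A further probe set of ERBB3 lay above the floor only on the empty vector array, at 118.4 against 85.9, and the remaining 2 lay below it on both arrays. Over the 3 receptors, 7 of 7 measured probe sets had a ratio above 0, with log2 ratios of 0.01 to 0.35, where 51.1% of all measured probe sets named to 1 gene did. The 7 stand for 3 genes, and only 1 of them differed from 0 by more than 1 SD.

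HBEGF codes for heparin-binding EGF-like growth factor, a ligand of EGFR that keratinocytes make in wounds and that is known as an early gene of the ERK cascade. Of its 4 probe sets 2 were measured. The brighter read 1529.3 with empty vector and 1186.9 on the SOX17 array, a log2 ratio of -0.37 ± 0.26. The dimmer read 755.4 and 586.3, again a log2 ratio of -0.37 ± 0.26. Both were lower on the SOX17 array by 1.29-fold, each at -1.43 SD. Of the 4574 genes with 2 or more measured probe sets, 3.17% had a log2 ratio of -0.32 or lower on every one. That share takes in genes with more than 2, for which the rule is harder to pass. The 2 probe sets of HBEGF report on the same gene and are no replicates. Of the 3344 measured genes in the middle tertile of levels, 10.3% had a lower ratio than HBEGF. Its 2 dim probe sets, both below the floor, read 30.6 and 17.3 with empty vector and 7.8 and 3.5 on the SOX17 array.

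TGFA codes for TGF-alpha, an EGFR ligand that epithelial cells make and respond to themselves. Its 3 probe sets did not give 1 answer. The brightest read 2875.4 with empty vector and 2788.2 on the SOX17 array, a log2 ratio of -0.04 ± 0.17. The next read 188.5 and 279.3, a log2 ratio of 0.57 ± 0.35, which is 1.60 SD. The dimmest read 89 on the empty vector array, below the floor, and 142.5 on the SOX17 array. The bright probe set therefore showed almost no difference and both dimmer ones were higher on the SOX17 array, and the mean over the measured probe sets was 0.26 where the brightest alone gave -0.04. Measured probe sets of both signs were found in 51.3% of the genes with 2 or more.

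ERRFI1 codes for MIG6, which binds the kinase domain of active EGFR family receptors and shuts it off, and is itself induced by EGF. It rests on 1 probe set, at 3828.3 with empty vector and 2997.1 on the SOX17 array, a log2 ratio of -0.35 ± 0.17. At -2.02 SD this was the farthest from 0 among the 12 measured probe sets in units of the error. Among the 3345 measured genes of the highest tertile of levels, 7.95% had a lower ratio. With only 1 probe set its value has no second reading on these arrays.

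**Figure D2:**
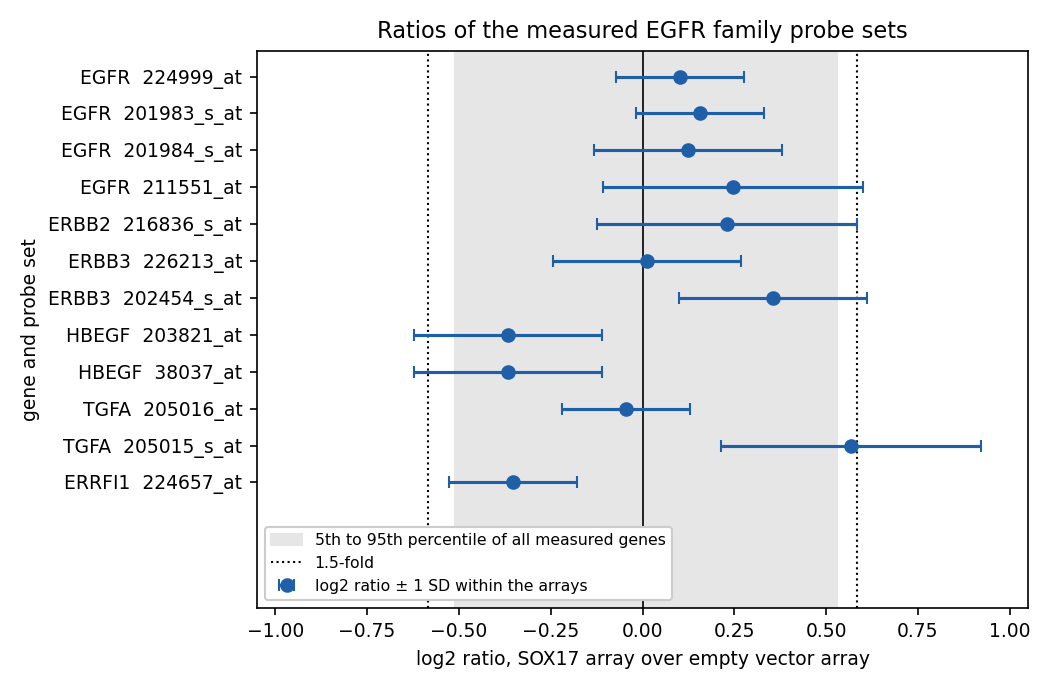
Log2 ratio (SOX17 over empty vector) of the 12 measured EGFR family probe sets (points), with bars of ± 1 SD of a ratio within the arrays, dotted lines at 1.5-fold and a grey band from the 5th to the 95th percentile of all measured genes. Both HBEGF probe sets (-0.37) and the ERRFI1 probe set (-0.35) lie left of 0 by more than their bars, the 7 receptor probe sets lie right of 0, and the 2 of TGFA lie apart (-0.04 and 0.57).

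**Figure D3:**
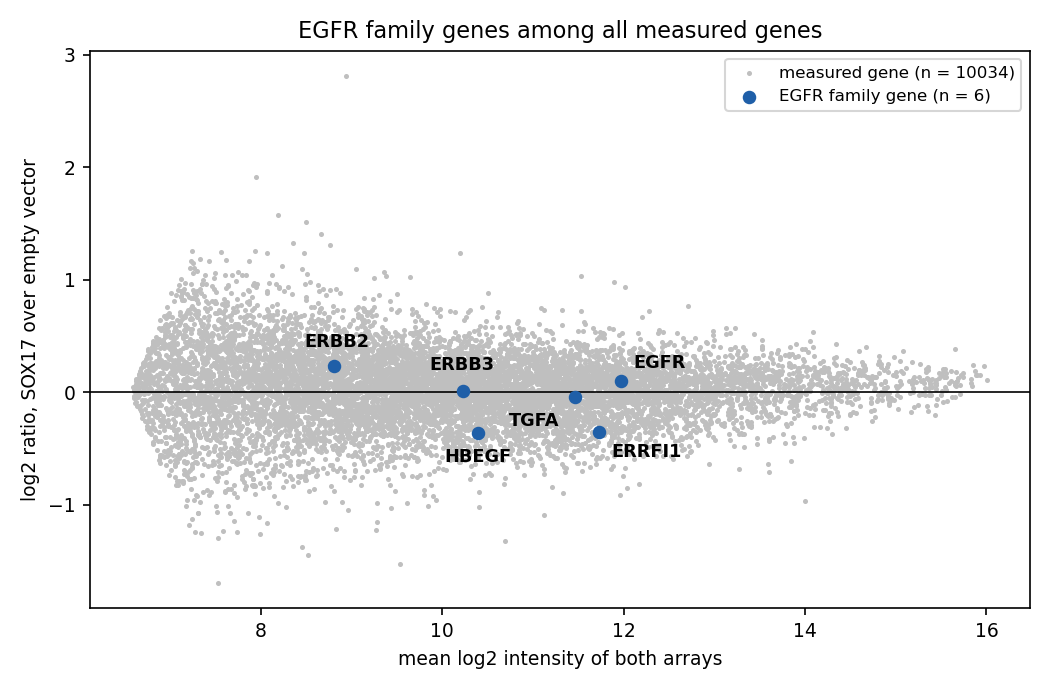
Log2 ratio (vertical) against mean log2 intensity of both arrays (horizontal) for the 10034 measured genes in grey and the 6 measured EGFR family genes in blue, each gene by its brightest probe set. All 6 lie inside the cloud of genes of like level, HBEGF (-0.37) and ERRFI1 (-0.35) toward its lower edge.

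The ligands EREG, AREG, BTC and EPGN lie together on chromosome 4: in the RefSeq annotation (GRCh38.p14) the order of protein-coding genes there is EPGN, EREG, AREG, BTC. Neither of the 2 with a named probe set was measured. EREG codes for epiregulin, which binds EGFR and ERBB4. Its probe sets read 52.8 and 5.8 with empty vector and 8 and 8.2 on the SOX17 array, all below the floor and in opposite directions. BTC codes for betacellulin, another ligand of EGFR and ERBB4. It read 85.6 and 41.7 with empty vector and 69.2 and 49 on the SOX17 array, also below the floor and in opposite directions. For EREG and BTC no fold is given, and a difference was not detectable at these signals. The protein-coding gene next to EPGN, MTHFD2L, a mitochondrial enzyme of folate metabolism, read 2970.3 and 3438. The one next to BTC, PARM1, read 107.2 and 129.7, near the floor. Both genes flanking the ligands were thus measured, PARM1 only narrowly.

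The promoters of the 2 lower members, HBEGF and ERRFI1, are shown with that of EGFR, the receptor they act on, so that their start regions can be read side by side. The sequences are RefSeq's for GRCh38.p14, which held a promoter for 9 of the 10 genes (not ERBB3). Each is the 250 bases before the outermost annotated start of the gene, 5′ to 3′ on the gene's strand. They lie at chr5:140346604-140346853 (minus strand) for HBEGF, chr1:8026310-8026559 (minus strand) for ERRFI1 and chr7:55018767-55019016 (plus strand) for EGFR. Any windows at other starts of a member were not read, whereas the shares over all windows given below take in every window. Capitals mark matches, on either strand, to any of 6 motifs: AP-1 (TGANTCA), CRE (TGACGTCA), SP1 (GGGCGG), the SOX core (ATTGT), ETS (CCGGAAG) and the CArG box.
HBEGF promoter: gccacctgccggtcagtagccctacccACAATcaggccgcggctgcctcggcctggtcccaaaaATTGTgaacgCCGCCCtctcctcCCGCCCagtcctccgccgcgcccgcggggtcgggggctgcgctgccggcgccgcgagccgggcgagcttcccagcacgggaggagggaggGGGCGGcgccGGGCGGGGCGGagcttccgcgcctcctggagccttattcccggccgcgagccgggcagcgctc
ERRFI1 promoter: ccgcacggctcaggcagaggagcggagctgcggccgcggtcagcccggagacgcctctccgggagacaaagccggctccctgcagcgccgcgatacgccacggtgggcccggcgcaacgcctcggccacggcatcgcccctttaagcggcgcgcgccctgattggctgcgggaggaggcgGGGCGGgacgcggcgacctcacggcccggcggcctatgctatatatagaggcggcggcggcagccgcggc
EGFR promoter: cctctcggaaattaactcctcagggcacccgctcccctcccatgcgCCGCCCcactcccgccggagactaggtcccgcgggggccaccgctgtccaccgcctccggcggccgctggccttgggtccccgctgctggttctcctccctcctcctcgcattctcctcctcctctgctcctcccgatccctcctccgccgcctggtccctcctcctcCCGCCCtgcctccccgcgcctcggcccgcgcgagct

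The HBEGF promoter held 5 SP1 matches, 2 of which overlap by 1 base, and 2 SOX core matches, at 223 to 219 and at 186 to 182 bases before the start. Of the 35116 promoter windows of this length in the table, 24.6% held at least 1 SOX core match and 6.28% held 2 or more, and 4.15% held 5 or more SP1 matches. The ERRFI1 promoter held 1 SP1 match and that of EGFR held 2, where 42.6% of all windows held at least 1 and 24.3% held 2 or more. The SOX core, searched as ATTGT only, was found in neither of these, nor in any other member promoter read. Other forms of a SOX site were not searched for, so their absence is not shown. No AP-1, CRE, ETS or CArG match lay in the HBEGF, ERRFI1 and EGFR windows, and 6.57%, 1.65%, 8.52% and 1.16% of all windows held one. AREG held a CRE match 65 to 58 bases before its start and 1 SP1 match. The ERBB2 window, at the outermost start only, held an AP-1 match 222 to 216 bases before that start. It also held 2 ETS matches, at 26 to 20 and at 14 to 8 bases before it. The TGFA promoter held 3 SP1 matches, and those of EREG, BTC and EPGN held no match to the 6 motifs. All 3 promoters were rich in G and C (76.4% for HBEGF, 75.2% for ERRFI1 and 73.6% for EGFR, against a median of 58% over all windows). A match describes the letters only, and binding was not measured.

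The rest of the pathway was read through 7 lists. The list of other receptors and ligands held ERBB4, EGF and NRG1 to NRG4, and also TDGF1, which is not an established ligand of these receptors. Of its genes 6 had a named probe set and 1 of these was measured, NRG1, the neuregulin that binds ERBB3. It read 1552.8 with empty vector and 1620.6 on the SOX17 array (log2 ratio 0.06 ± 0.26). Its 3 measured probe sets ranged from -0.47 to 0.06.

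The list for ligand shedding holds ADAM proteases, factors that escort or steady ADAM17 (RHBDF1, RHBDF2 and FRMD8), the protease RHBDL2 and the protease inhibitor TIMP3. Of its 9 measured genes (10 listed) 7 had a ratio below 0, against 45.4% of all measured genes, and 0 passed 1.5-fold either way, against 3.78% higher and 3.19% lower, with a list median of -0.05. The genes above 0 were ADAM17 (0.02) and TIMP3 (0.15). RHBDF1, which escorts the protease ADAM17 to the surface, read 335.7 with empty vector and 234.2 on the SOX17 array (-0.52 ± 0.35). ADAM10, the protease known for cutting betacellulin and EGF, read 5827 and 4478.8 (-0.38 ± 0.17). The 3 measured probe sets of ADAM10 ranged from -0.38 to 0.23, and their mean was -0.04. ADAM9, another protease of the group, read 11316.5 and 9115.1 (-0.31 ± 0.17), and its other measured probe set lay at -0.14. ADAM9 was thus lower on both of its probe sets, and ADAM10 was not lower on all of its own.

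Adaptor and docking genes had a median of -0.11 (14 measured of 18 listed, 8 below 0, 2 at least 1.5-fold higher and 0 lower), where 45.4% of all measured genes lay below 0, 3.78% were 1.5-fold higher and 3.19% lower. Of the 18 listed 2 had no named probe set. NCK2, an adaptor that links receptors to the actin skeleton, had the highest ratio of all 7 lists, at 100.4 with empty vector and 225.4 on the SOX17 array (1.17 ± 0.35). GRB7, an adaptor that binds ERBB2, read 152.2 and 234.9 (0.63 ± 0.35). VAV3 read 1176.1 and 1615.8 (0.46 ± 0.26), and its other probe set lay at 0.40. NCK2 and GRB7 each rest on 1 measured probe set of the lowest tertile of levels, and NCK2 on the empty vector array was near the floor.

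The cascades below the receptors were mixed among the genes that could be read. In the RAS to ERK list 5 of the 14 genes had no named probe set, and in the PI3K to AKT list 4 of the 10. Of 8 measured genes of the RAS to ERK cascade (14 listed) 4 lay below 0 (median -0.004, 1 at least 1.5-fold higher and 0 lower), beside 45.4%, 3.78% and 3.19% of all measured genes. MAP2K2, a kinase that activates ERK, read 1745.2 with empty vector and 2652.4 on the SOX17 array (0.60 ± 0.17), but its other measured probe set lay at 0.10, and their mean, 0.35, did not pass 1.5-fold. MAPK3, an ERK, read 284.2 and 233 (-0.29 ± 0.35), and RPS6KA3, a kinase that ERK activates, read 1508.2 and 1260.2 (-0.26 ± 0.26). Of 6 measured PI3K to AKT genes (10 listed) 4 lay below 0 (median -0.13, 0 past 1.5-fold either way), beside the same shares of all measured genes. AKT2 read 566.1 and 417.6 (-0.44 ± 0.35), MTOR 449.4 and 336.8 (-0.42 ± 0.35), and PDPK1, the kinase that activates AKT, 2405.8 and 2119.3 (-0.18 ± 0.17).

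Genes for receptor turnover and inhibition, the group to which ERRFI1 belongs by function, had a median of -0.12 (20 measured of 22, 13 below 0, 1 at least 1.5-fold higher and 0 lower), beside 45.4%, 3.78% and 3.19% of all measured genes. The 1 of 20 that was higher is near that background. TNK2, a kinase that takes part in EGFR breakdown, read 105 with empty vector and 225.7 on the SOX17 array (1.10 ± 0.35), on 1 measured probe set that was near the floor on the former. LRIG2, of the LRIG family of membrane proteins, read 429.1 and 296.9 (-0.53 ± 0.35), and its other probe set lay at -0.25. USP8, which takes ubiquitin off internalised EGFR, read 2380.8 and 1818.2 (-0.39 ± 0.17), and its other probe set lay at -0.44. USP8 was thus lower by more than 1 SD on its brightest probe set, as ERRFI1 was.

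ERK-induced genes had the lowest median of the 7 lists, -0.32. Of 18 measured genes (20 listed) 16 lay below 0 (88.9%), against 45.4% of all measured genes. At -0.32 or lower lay 9 of them, beside 13% of all measured genes, and at 0.32 or higher 0, beside 15%. The AP-1 subunit JUNB, at 806.9 with empty vector and 506.3 on the SOX17 array (-0.67 ± 0.26), was the 1 gene at least 1.5-fold lower, beside 3.19% of all measured genes. It rests on 1 measured probe set. The ERK pathway inhibitor SPRED1 read 679.5 and 462.5 (-0.56 ± 0.26), but its other measured probe set lay at -0.02. SPRY4, of the Sprouty family of inhibitors, read 166.7 and 113.6 (-0.55 ± 0.35), on 1 measured probe set that was near the floor on the SOX17 array. HBEGF (-0.37) and ERRFI1 (-0.35) were not on this list and lay close to its median. The median was -0.22 with the mean over probe sets and -0.13 when IDs ending in _x_at or _s_at were left out. In the latter setting the list no longer had the lowest median, since adaptor and docking genes then lay at -0.17. Early response genes were known to be lower on this array when the list was drawn up, so it is no independent evidence of a direction.

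**Figure D4:**
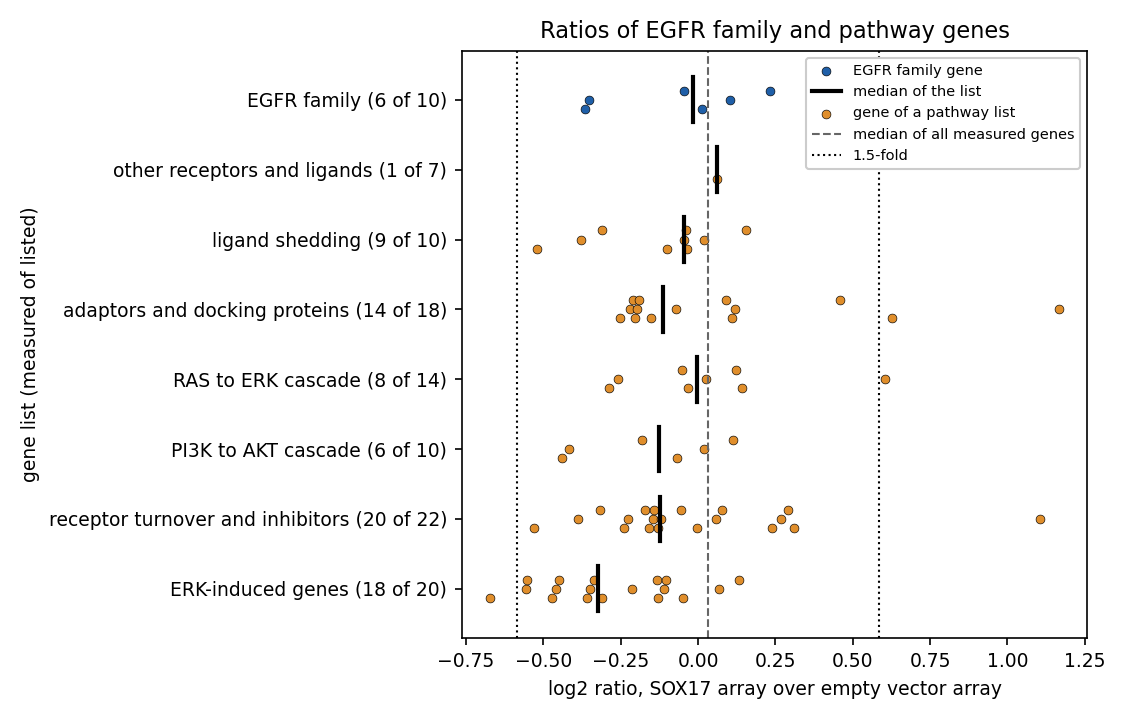
Log2 ratio (SOX17 over empty vector) of each measured gene (points) of the EGFR family and of 7 pathway lists, with a bar at each list's median, a dashed line at the median of all measured genes (0.03) and dotted lines at 1.5-fold. The ERK-induced genes lie farthest left, with 16 of 18 below 0 and a median of -0.32, and the EGFR family genes spread on both sides of 0.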

How the data were processed

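RNA from 2 cultures was hybridised to Affymetrix arrays after Trizol extraction and biotin labelling, per the labels' protocols. The authors deposited a linear intensity for each probe set on each array, and the submitters' processing notes name GCOS. The algorithm behind it is not given in the sources used here, nor are detection calls. After trimming 2% of values at either end, the mean intensity was 500.1 on both arrays, as scaling to a common mean would give, so a shift shared by all transcripts would not show in the gene ratios themselves. The poly-A controls are given beside the results. Precision is limited by having 2 arrays. Of 54675 probe sets, 62 controls were left out. Genes were named from GEO's platform annotation. No genome build belongs to the values, and coordinates are those of RefSeq promoters.

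Ratios were taken from the values as deposited. The error is the SD of the difference between the log2 ratios of the 2 brightest measured probe sets of a gene, divided by the square root of 2, over 4574 genes in tertiles of level. Named were all members and, of each list, the 3 measured genes with the largest absolute log2 ratio and any further ones past 1.5-fold. The members and lists were chosen with earlier results of these data known. Alternatives were median centring, quantile normalization, loess (span 0.4), a floor at the 50th percentile, at the 75th or none at all, means over probe sets, dropping IDs that end in _x_at or _s_at, and calls at a smaller size (0.32 on the log2 scale) and at 2-fold. Scripts ran in Python 3.11.15 with pandas 2.3.3, numpy 2.4.6, statsmodels 0.14.6, scipy 1.17.1 and matplotlib 3.10.9 and were tested on simulated data.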

Additional observations from a re-analysis of the deposited data

How the results depend on the processing

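EGFR, ERBB2, ERBB3, HBEGF and ERRFI1 kept the sign of their log2 ratio in every alternative that gave them a value. Several alternatives could not have changed it. A change of floor leaves the brightest probe set of these genes the same, and dropping IDs left that of all but ERBB2 in place. For ERBB2 and ERRFI1, with 1 measured probe set each, the mean over probe sets could not change the value either. HBEGF ranged from -0.37 to -0.33, ERRFI1 from -0.36 to -0.34, EGFR from 0.09 to 0.16, ERBB2 from 0.22 to 0.24 and ERBB3 from 0.005 to 0.18. TGFA turned sign with the mean over probe sets (0.26). The count of members at least 1.5-fold lower, 0 of 6, became 1 of 8 with no floor (EREG), where 2880 of all 19775 genes were. At a log2 ratio of 0.32 it became 2 of 6 (HBEGF and ERRFI1), where 13% of all measured genes were lower. With no floor the count below 0 became 5 of 8, where 43.4% of all genes lay below. The median of the members was -0.18 with no floor and 0.17 with the mean over probe sets, and it also turned sign with quantile normalization (0.02) and loess (0.0007), so its sign is not settled. The median of the ERK-induced genes was -0.22 with the mean over probe sets and -0.13 without those whose ID ends in _x_at or _s_at, where it was no longer the lowest of the lists. That setting also left ERBB2 without a measured probe set. Without a floor, values under it, which have no settled order, enter the counts. Over all measured genes the numbers at least 1.5-fold higher and lower were 379 and 320 of 10034. They became 670 and 477 of 11310 when the floor was the 50th percentile and 108 and 135 of 7562 when it was the 75th. With no floor they were 4238 and 2880 of 19775, and the floor moved them most. No paired analysis was possible because each group had 1 array.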
